A study of Mus musculus with 12 samples.

Results

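The Fos family of transcription factor genes comprises Fos, Fosb, Fosl1, which encodes FRA-1, and Fosl2, which encodes FRA-2. The binding of FRA-1 itself to these 4 genes was examined by chromatin immunoprecipitation followed by sequencing (ChIP-seq) in mouse peritoneal macrophages. A peak is a stretch of the genome where the precipitated DNA fragments pile up above background. Overlapping or adjoining peaks of the 9 ChIP replicates were joined to regions, and a region was counted for a gene when it lay in the RefSeq gene body or within 20 kb of it (GRCm38). This gave 26 of the 300608 regions in the whole data set, made up of 31 replicate peaks. The rule uses gene names and positions and no peak value.

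The macrophages received no stimulus, LPS (bacterial lipopolysaccharide) or apoptotic cells at a ratio of 1:5, with 3 replicates per condition. Stimulation lasted 1 h. For LPS, the records state 10 µg/mL in one place and 1 µg/mL in another. The mice were 8 weeks old, of a 129/C57Bl6 background by the sample records and C57Bl/6 by the design text. Cells of the same 3 mice went into each condition by the labels, but the tables do not show which mouse a replicate is, so that replicate numbers do not pair samples. The labels name no transgene or deletion in any group. By the sample records the cells were elicited with thioglycollate and harvested 72 h later, whereas the design text describes lavage alone, and the adherent cells were used after a night in culture. The tables hold peaks and no expression, so that the cell type could not be checked against its marker genes.

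Fos family proteins do not pair with each other. They bind DNA as dimers with Jun proteins, and these dimers, known as AP-1, recognize the sequence TGACTCA. Fos and Fosb are immediate early genes, switched on within minutes by kinase signals acting on factors already bound at their promoters, and their proteins carry a transactivation domain. FRA-1 and FRA-2 lack such a domain, and Fosl1 and Fosl2 are known as targets of AP-1 themselves, so that FRA-1 binding at its own family genes would be a form of autoregulation. In macrophages, LPS acts through Toll-like receptor 4 and the MAP kinases to induce AP-1, whereas the uptake of apoptotic cells is known to dampen inflammatory genes.

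The replicates differed in their number of peaks, between and within conditions, and the sequencing depth is unknown. Unstimulated replicates held 20981 to 28314 peaks, LPS replicates 39728 to 63010 and apoptotic cell replicates 31501 to 79474. The smallest peak was 104 to 116 bp wide in 4 replicates (the narrow class: unstimulated 3, LPS 1, LPS 3 and apoptotic cells 3) and 158 to 172 bp wide in the other 5 (the wide class). Of the 31 peaks at the Fos family, 20 (64.5%) came from LPS replicate 3 and apoptotic cell replicate 3, the replicates with the most peaks, which together held 38.0% of all peaks. Every treated replicate had more peaks than every unstimulated one, and the part of these differences in the results below was not tested.

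The most reproducible FRA-1 region of the family lay upstream of Fosl2, which encodes FRA-2. It was present in all 3 LPS replicates and in none of the other 6. The region covers chr5:32135179-32135653 (GRCm38), 819 to 1293 bp before the transcription start of Fosl2, which lies on the plus strand from 32136472 to 32157840 (gene ID 14284). No other gene overlaps the region, and the nearest other protein-coding gene, Babam2, ends 50229 bp away. The score of a peak is read here as its p-value on a Phred scale, higher for stronger peaks, and no listed peak scored under 50.01. LPS replicate 1 had a peak of 109 bp with a score of 136.64, LPS replicate 2 a peak of 475 bp with a score of 63.81, and LPS replicate 3 a peak of 278 bp with a score of 123.61. All of these shared 109 bp, from 1127 to 1235 bp before the start. The comparison of 3 of 3 LPS with 0 of 3 unstimulated replicates gave p = 0.1 (Fisher's exact test, two-sided), as did that of LPS with apoptotic cells, which shares the LPS replicates. This is the smallest p that 3 against 3 replicates allow. The region was picked for the test through the same LPS peaks, so that this p lends no support to a difference.

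**Figure D1:**
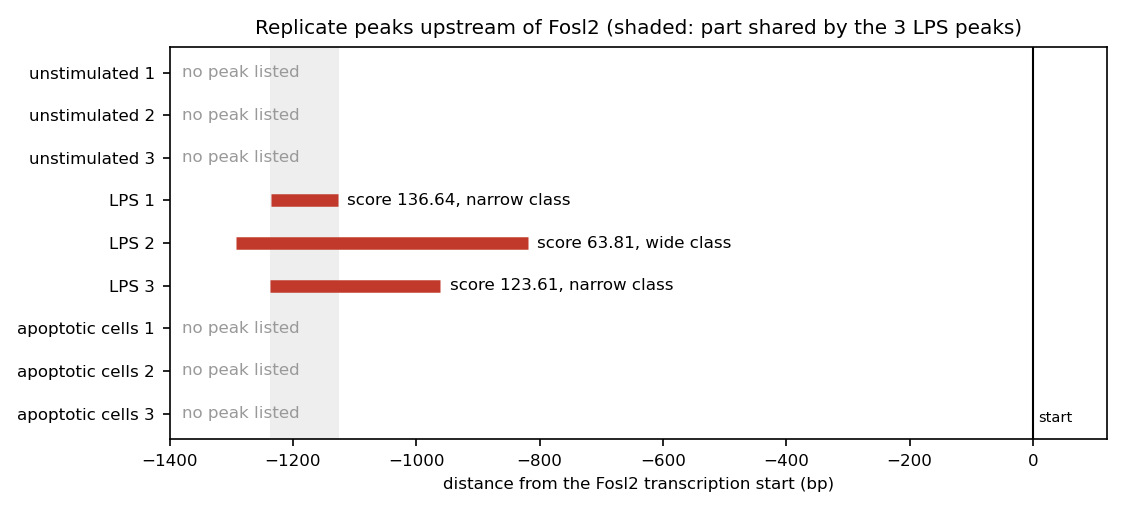
Replicate peaks upstream of Fosl2, as bars along the distance from the transcription start in bp, with 1 row for each of the 9 replicates and the score beside each peak. The 3 LPS replicates each had a peak between 819 and 1293 bp before the start, while no peak was listed in the unstimulated and apoptotic cell replicates.

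The peaks at this Fosl2 region were low within LPS replicates 2 and 3 and near the middle within LPS replicate 1. They lay at the 56.4th, 3.47th and 19.5th percentile of the scores of LPS replicates 1, 2 and 3. The score of 136.64 was shared with 13.0% of all peaks of LPS replicate 1, and is also that replicate's median. With scores of at least 100, replicate 2 lost its peak and 2 of 3 LPS replicates kept theirs. With equal numbers of top-scoring peaks per replicate (20981), no LPS replicate kept a peak in the Fosl2 window. In LPS replicate 1, with 46007 peaks, this cut fell among the peaks tied at 136.64. Its loss there thus rests on how ties were handled, and not on a lower score. The difference of LPS minus unstimulated at Fosl2 in this setting was −0.33 peaks, from the single peak of unstimulated replicate 3, and it rests on the same tie. By class of peak width, the region was listed in 2 of 4 replicates of the narrow class (LPS 1 and 3) and in 1 of 5 of the wide class (LPS 2).

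Such a pattern was rare over the whole data set, and whether it was rarer near gene starts than elsewhere was not tested. A peak in each LPS replicate and none in the other 6 was found at 200 of all 300608 regions (0.0665%), and at 0.209% if only unstimulated replicates had to lack it. A region of the first kind lay within 20 kb of 1.01% of 21887 protein-coding genes (of the second kind, 2.58%), and within the 2000 bp before a start for 8 of 27025 genes with a listed start (0.0296%). Besides Fosl2, these were Arhgap29, Atxn7l3, Mettl5, Misp3, Plcd1, Slc39a2 and Trappc3. Of these 200, 19 scored lower than the region upstream of Fosl2 in LPS replicate 3, where their median was 226.93, and 12 in LPS replicate 2, where their median was 89.28. In LPS replicate 1 it stood at their median of 136.64, with 58 lower and 42 others at the same score. This region was singled out of 26 after its values were seen. The stretch of 2000 bp before a start was not a planned setting. These shares therefore describe the pattern and do not show that Fosl2 is exceptional.

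Inside the Fosl2 gene, 5 further regions were listed, each in 1 replicate. Apoptotic cell replicate 3 had peaks 3995 to 4185 bp and 16694 to 16977 bp into the gene, with scores of 71.45 and 69.46. Unstimulated replicate 3 had one 17176 to 17373 bp into the gene with a score of 128.85, LPS replicate 2 one at 17720 to 17890 bp with a score of 89.28, and apoptotic cell replicate 2 one at 19786 to 19993 bp with a score of 175.18. Of these, 4 lay in the last 5 kb of the gene without overlapping, so that all conditions had a peak near its 3′ end but none at the same place. No region was listed beyond the 3′ end of Fosl2.

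At Fosl1 (gene ID 14283), the gene of the precipitated factor, no region was shared between replicates of one condition. Fosl1 lies on chromosome 19 from 5447698 to 5455938, in a stretch dense with other genes, and its window held 9 regions, the most of the family. LPS replicate 3 had 4 peaks and apoptotic cell replicate 3 had 5, while apoptotic cell replicate 1 and unstimulated replicate 3 had 1 each, and the other 5 replicates had none. The single region inside Fosl1, chr19:5453610-5453774, lies in the part of the gene that overlaps Ccdc85b, 5912 to 6076 bp from the lower-coordinate end of Fosl1. It was listed with LPS in replicate 3 (score 136.35) and with apoptotic cells in replicate 3 (score 128.9). These values were shared with 9.28% and 5.26% of all peaks of their replicates.

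Only 3 regions lay closest to Fosl1 at its lower-coordinate side, all in apoptotic cell replicate 3. They were 2187 to 2440 bp, 5530 to 5813 bp and 6509 to 6894 bp from the gene, with scores of 87.92, 111.2 and 75.58, and the first of these is the one that the deposited table assigns to Fosl1. The direction of Fosl1 is not given in the reference table used here. The remaining 5 regions were nearer to another gene than to Fosl1. Unstimulated replicate 3 had a peak 428 bp from Ccdc85b with a score of 187.72, and apoptotic cell replicate 3 one 1018 bp from Fibp with a score of 193.0, at the 93.3rd percentile of its scores, the highest percentile of the family. LPS replicate 3 had one 853 bp from Efemp2 (score 182.13) and one 412 bp from AI837181 (score 136.35). The last of these regions overlaps the pseudogene Gm25432 and was listed in LPS replicate 3 (score 214.36) and apoptotic cell replicate 1 (score 67.34).

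At Fos (gene ID 14281), the best known immediate early gene, all 6 regions were listed in a single replicate and none lay inside the gene, on the plus strand of chromosome 12 from 85473890 to 85477274. Apoptotic cell replicate 3 had peaks 1974 to 2157 bp and 3270 to 3515 bp upstream, with scores of 60.99 and 98.23, both assigned to Fos in the deposited table. LPS replicate 3 had one 13743 to 13948 bp upstream and others 8614 to 8946 bp and 13915 to 14190 bp downstream, with scores of 71.3, 65.13 and 78.12. These 3 LPS peaks lay at or below the 6.74th percentile of that replicate. The highest score at Fos, 168.12, came from unstimulated replicate 2, 18630 to 18809 bp downstream.

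Fosb (gene ID 14282), an immediate early gene like Fos, lies on the minus strand of chromosome 7 from 19302696 to 19310118 and had 5 regions, none inside the gene. Of these, 4 lay upstream. Apoptotic cell replicate 2 had a peak 1226 to 1519 bp before the gene with a score of 124.89, and unstimulated replicate 2 had peaks 2774 to 3134 bp and 7610 to 7833 bp before it, with scores of 125.19 and 85.06. The deposited tables assign the first 2 of these to Fosb. A region 15819 to 16160 bp upstream was listed in LPS replicate 3 (score 61.08) and apoptotic cell replicate 3 (score 103.49). The single region on the downstream side lay inside Rtn2, in apoptotic cell replicate 3 (score 128.9).

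**Figure D2:**
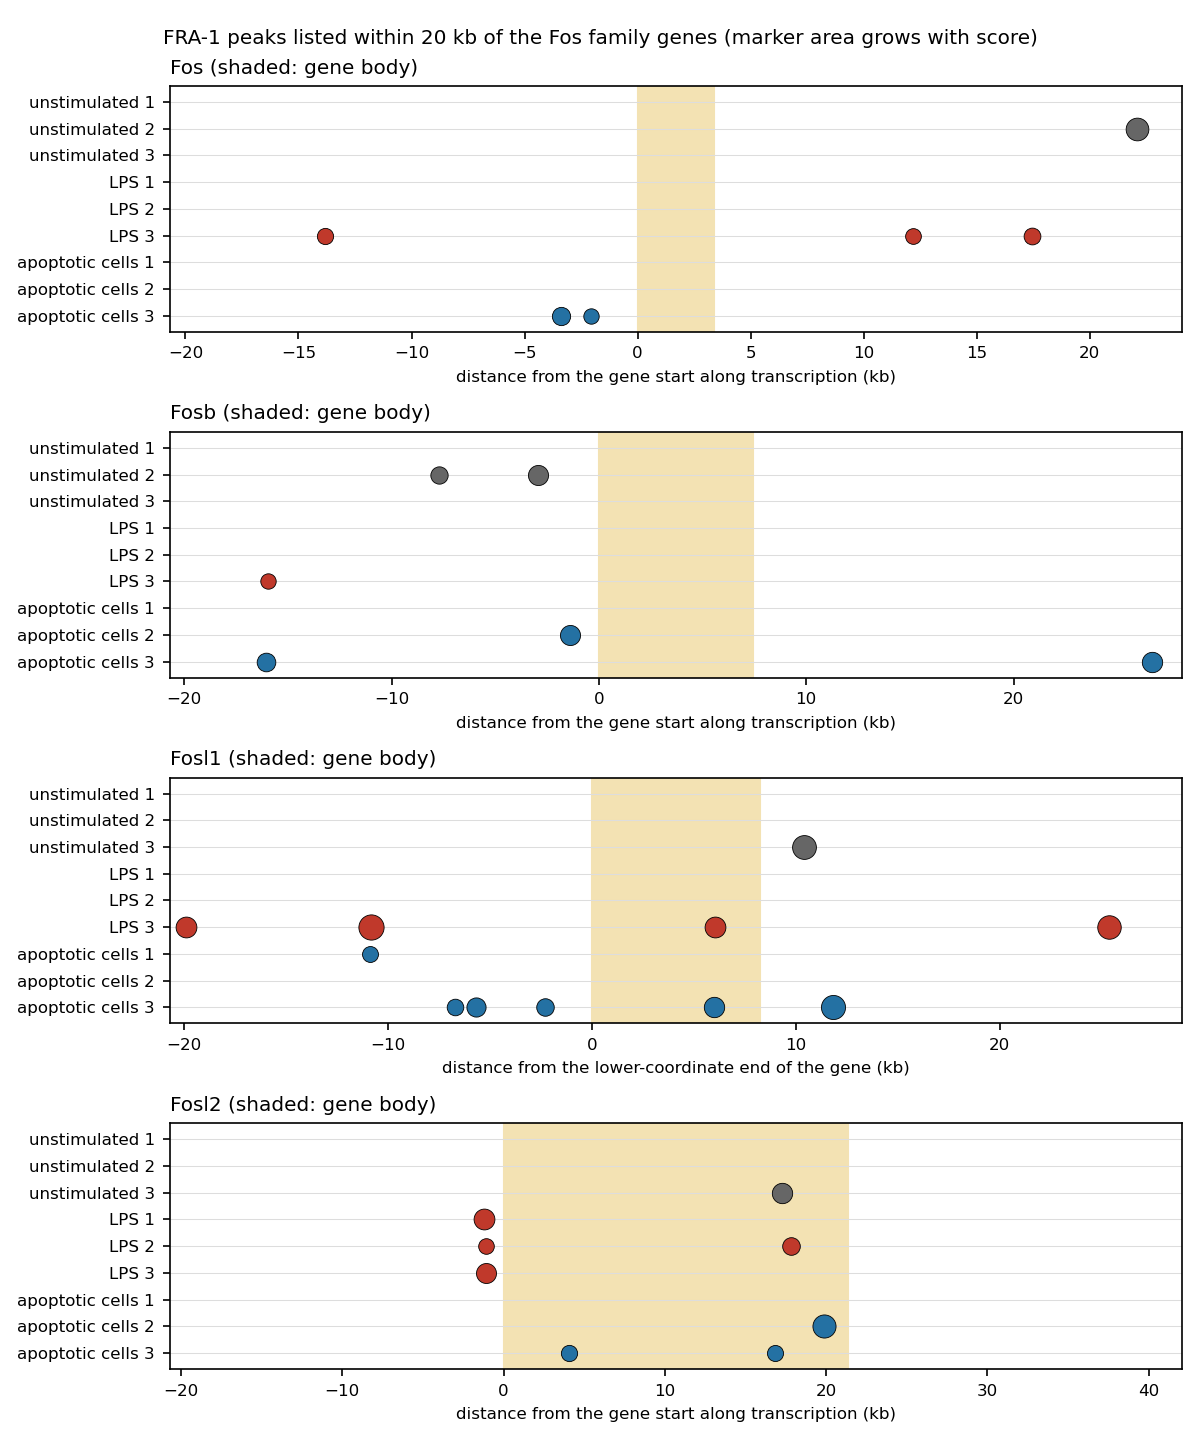
Position of each FRA-1 peak within 20 kb of Fos, Fosb, Fosl1 and Fosl2, as distance from the gene start in kb (for Fosl1, from the lower-coordinate end), with 1 row for each of the 9 replicates, colored by condition, and the gene body shaded. Peaks of LPS replicates line up 819 to 1293 bp upstream of Fosl2, whereas most other peaks stand alone in 1 replicate.

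None of the 31 peaks reached the 250 bp before the start of Fos, Fosb or Fosl2. Of all 32851 promoters in the RefSeq table, 4.35% overlapped a region of any replicate in this stretch, so that finding none at 3 genes does not set them apart. The sequences are given for Fos, which holds a match in the stretch, and for Fosl2, as its LPS region lies upstream of it (RefSeq, GRCm38.p6, 5′ to 3′ in the direction of transcription). Capitals mark TGACGT, the core of the cyclic AMP response element.
Fos, plus strand, chr12:85473640-85473889: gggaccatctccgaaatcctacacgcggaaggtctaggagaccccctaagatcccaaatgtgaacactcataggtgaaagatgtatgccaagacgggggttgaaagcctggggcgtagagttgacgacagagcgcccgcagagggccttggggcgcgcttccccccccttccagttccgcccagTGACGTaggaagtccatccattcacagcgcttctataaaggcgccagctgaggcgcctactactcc
Fosl2, plus strand, chr5:32136222-32136471: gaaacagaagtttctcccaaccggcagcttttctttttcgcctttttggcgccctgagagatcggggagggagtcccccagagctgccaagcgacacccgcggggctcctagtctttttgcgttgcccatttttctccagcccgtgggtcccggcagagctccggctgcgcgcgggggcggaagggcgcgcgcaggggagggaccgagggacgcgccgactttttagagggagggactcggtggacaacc
On both strands, the AP-1 letters TGACTCA were not found in this stretch of Fos, Fosb or Fosl2, and are present in 4.46% of all promoters. The full response element TGACGTCA, which contains TGACGT, was not found either (1.55% of all promoters), nor was the CArG box of the serum response factor (1.47%). The known serum response element of Fos lies farther upstream than the stretch searched. The shorter TGACGT was found in Fos alone, 61 to 66 bp before the start, and in 6.47% of all promoters. It was added to the search after the sequences had been seen. A match is a description of the letters and not of binding.

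The number of peaks per replicate was next compared between conditions for each gene. At Fosl2, the 3 LPS replicates had 1, 2 and 1 peaks, the unstimulated replicates 0, 0 and 1, and the apoptotic cell replicates 0, 1 and 2. The means were 1.33 ± 0.58 (SD, n = 3) after LPS, 0.33 ± 0.58 without stimulation and 1.00 ± 1.00 with apoptotic cells. Fosl2 was the only gene of the family with a peak in every LPS replicate, but the replicates with 1 peak overlapped with unstimulated replicate 3 (two-sided exact permutation test, p = 0.3 for LPS and p = 0.7 for apoptotic cells against unstimulated, n = 3 each).

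At Fosl1, LPS replicates had 0, 0 and 4 peaks, unstimulated replicates 0, 0 and 1, and apoptotic cell replicates 1, 0 and 5. The differences of the means rested on a single replicate in each treated group and did not exceed the spread (exact permutation test, p = 1 for LPS and p = 0.7 for apoptotic cells against unstimulated). Without LPS replicate 3, the LPS mean fell below the unstimulated mean, with a difference of −0.33 peaks.

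At Fos, the LPS replicates had 0, 0 and 3 peaks, the unstimulated replicates 0, 1 and 0, and the apoptotic cell replicates 0, 0 and 2. At Fosb they had 0, 0 and 1, then 0, 2 and 0, then 0, 1 and 2. The conditions overlapped at both genes (exact permutation test, p = 1 for either treatment against unstimulated). For LPS against apoptotic cells, p was 1 at Fos and Fosl2 and 0.7 at Fosb and Fosl1. In 12 comparisons, 3 against 3 replicates allowed no p under 0.1, and none reached it. Tied peak numbers raise this floor. At Fosl2, the p of 0.3 for LPS against unstimulated was already the smallest that its peak numbers allow. Where ties put 0.1 out of reach, missing it says nothing about a difference.

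**Figure D3:**
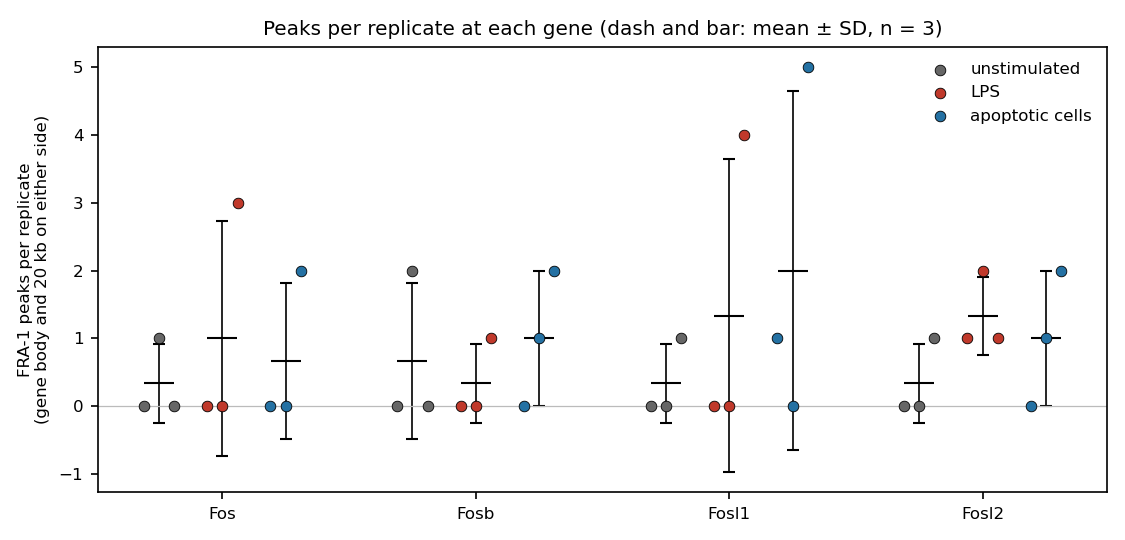
FRA-1 peaks per replicate (points) in the gene body and 20 kb on either side of each Fos family gene, by condition, with the mean and SD of 3 replicates as dash and bar. The conditions overlap at every gene, and the values of 3 to 5 peaks at Fos and Fosl1 come from replicate 3 of LPS or apoptotic cells.

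Across all protein-coding genes, the LPS replicates all exceeded the unstimulated ones in peak number in 9.87% of windows and all fell below them in 0.187%. For apoptotic cells against unstimulated, these shares were 6.57% and 0.169%, and for LPS against apoptotic cells 1.99% and 1.28%. No gene of the family (0 of 4) was among them in any comparison. Over the 4 genes together, the unstimulated replicates had 0, 3 and 2 peaks, the LPS replicates 1, 2 and 9, and the apoptotic cell replicates 1, 2 and 11. Relative to 10000 peaks of the replicate, these were 0, 1.43 and 0.706 without stimulation, 0.217, 0.503 and 1.43 after LPS, and 0.245, 0.635 and 1.38 with apoptotic cells. On this scale too the conditions overlapped. Without LPS replicate 3, the LPS mean over the family was below the unstimulated mean by 0.17 peaks, and without apoptotic cell replicate 3 so was the mean with apoptotic cells. Within the wide class, the numbers were 0 and 3 without stimulation, 2 after LPS and 1 and 2 with apoptotic cells, and within the narrow class 2, then 1 and 9, then 11.

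The number of regions did not set the family apart from other genes. The median protein-coding gene had 8 regions in its window, against 6 at Fos, 5 at Fosb, 9 at Fosl1 and 6 at Fosl2. At least as many as Fosl1 were found at 42.7% of protein-coding genes, as Fos and Fosl2 at 69.0% and as Fosb at 77.9%. A single replicate held the peak in 22 of the 26 regions, and in 89.7% of all regions. Only the region upstream of Fosl2 (1 of 26) had a peak in at least 2 replicates of one condition, against 7.79% of all regions. Thus 1 of 4 genes had such a region after LPS, where 48.7% of all protein-coding genes did (50.3% in any condition). None of the 4 had one in unstimulated macrophages (13.6% of all genes) or with apoptotic cells (24.4%).

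The genes of the AP-1 partners were looked at in the same way. Of 17 such genes (the Jun genes and the related Atf, Batf, Jdp2, Maf and Nfe2l2 genes, whose proteins belong to the wider class of basic leucine zipper factors), 9 had a region in at least 2 LPS replicates (52.9%, against 48.7% of all protein-coding genes), 3 with apoptotic cells (17.6% against 24.4%) and 2 without stimulation (11.8% against 13.6%). These shares were near or below those of all genes. The median number of regions was 7, against 8 over all protein-coding genes. Junb, a main dimer partner of the Fos proteins, had a region 4526 to 4696 bp upstream in 6 of 9 replicates, all 3 with apoptotic cells (scores 211.84, 175.18 and 242.95), LPS replicates 1 and 3 (314.12 and 448.8) and unstimulated replicate 3 (196.7). In LPS replicates 1 and 3, both scores were higher than those of the region upstream of Fosl2. Jund had a region in LPS replicates 1 and 3, and Jun, which had 9 regions, had none in 2 replicates of one condition. Atf7 held an intragenic region in 8 of 9 replicates. Jdp2, which encodes a repressor of AP-1, and Nfe2l2, which encodes the antioxidant regulator NRF2, also had regions in LPS replicates 1 and 3, with 2 and 3 of them. The others with such a region were Atf4, Batf3, Maff and Mafg.

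Except at Atf7, these LPS calls rested on replicates 1 and 3, and leaving out either of them reduced the 9 genes to 1. The region upstream of Fosl2 differed in being listed in LPS replicate 2 as well. Over all protein-coding genes, the share with a region in at least 2 LPS replicates fell from 48.7% to 16.5% without LPS replicate 1 and to 15.2% without LPS replicate 3. The share without stimulation fell from 13.6% to 6.71% without unstimulated replicate 3.

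Of 13 genes that act upstream of Fos or are induced with it, 7 had a region in at least 2 LPS replicates (53.8%, against 48.7% of all genes), 3 with apoptotic cells (23.1% against 24.4%) and 2 without stimulation (15.4% against 13.6%). These shares too were near those of all genes, and the median number of regions was 9. Egr2, an immediate early gene, had a region 5309 to 5485 bp downstream in 8 of 9 replicates, with scores from 126.16 to 445.06. Creb1, whose product binds the cyclic AMP response element, had an intragenic region in all 3 LPS replicates (scores 98.89, 102.12 and 142.45), in apoptotic cell replicate 1 and in no unstimulated replicate. Mapk14, the gene of p38α, had a region in 4 places shared by LPS replicates 1 and 3, and Elk4 in 2. Srf, Elk3 and Mapk8 had 1 each. The other 6, among them the immediate early genes Egr1, Egr3 and Ier2, had none in 2 replicates of one condition, like Fos and Fosb. The number of peaks was higher in every LPS than in every unstimulated replicate at 4 of these 13 genes (Srf, Mapk8, Mapk14 and Creb1) and at 1 of the 17 AP-1 partner genes (Mafg), against 9.87% of all genes. For apoptotic cells against unstimulated, it was higher at 0 of the 13 and at 3 of the 17 (Jun, Mafg and Nfe2l2), against 6.57% of all genes.

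**Figure D4:**
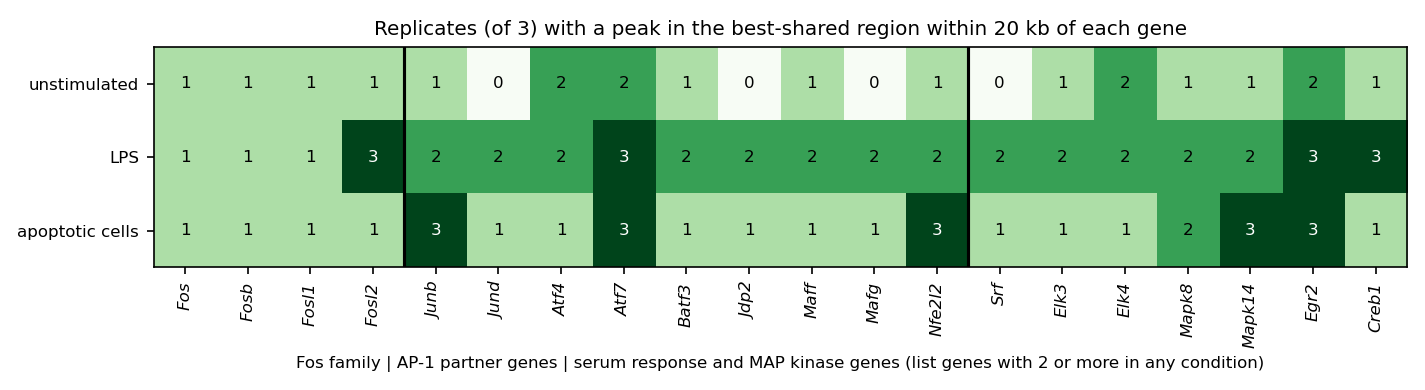
For each gene, the largest number of replicates (of 3, by condition) with a peak in the same region within 20 kb, for the Fos family and for those list genes with at least 2 in any condition, 9 of 17 AP-1 partner genes and 7 of 13 serum response and MAP kinase genes. Fosl2 stands at 3 after LPS and Fos, Fosb and Fosl1 at 1 in every condition.

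The pattern of peaks over the 9 replicates was not particular to a family gene. The same replicates had a peak at 59 other protein-coding genes as at Fos, at 46 as at Fosb, at 56 as at Fosl1 and at 124 as at Fosl2. By Pearson's r of log2(1 + summed score) over the 9 replicates, the most similar genes were Odf3l1 (r = 0.99997), Grxcr2 and Olfr487 for Fos, Defb29 (r = 0.998), Pkp3 and Capn9 for Fosb, Polr2g (r = 0.998), Msx1 and Mars2 for Fosl1, and Gjb5 (r = 0.996), Gabra4 and Lrrc29 for Fosl2. These values describe which replicates had any peak, are set largely by zeros, and were the highest among 19596 genes.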

How the data were processed

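FRA-1 ChIP-seq of 9 macrophage replicates was analyzed, without the pooled inputs. The authors deposited 1 table per condition with a score for each of 3 replicates in columns 5 to 7, not normalized between replicates, read here as a Phred-scaled p-value (−1 for no peak). The submitters' processing notes name BWA 0.7.14, bedtools and the builds mm10 and GRCm38, and the caller behind the deposited peaks is not given in the sources used here. The paper's MACS2 calls come from its own later analysis of the reads.

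Adjoining segments with equal scores were joined to peaks, and peaks of all replicates to regions (1-based positions). Gene bodies and promoter sequences (3 of 4 genes matched) came from RefSeq, GRCm38.p6. Percentiles are average ranks within a replicate. Peak numbers were compared with exact permutation tests over replicates, whose p-values measure only the spread between these samples. Without read counts, no counting interval could be given. On simulated data, 3600 of 3600 peaks were recovered.

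The genes, lists and tests were chosen with earlier results of these data known. Named genes were the family, neighbors holding or nearest to a region, list genes with a region in at least 2 replicates of a condition, and the 3 most similar genes each among those with a peak in at least 3 replicates. Genes with the LPS pattern before a start, and list genes without a shared region, were named after their values were seen, and 1 list gene is not reported here. Alternatives were windows of 0, 5 and 50 kb, scores of at least 100, the 20981 highest-scoring peaks of each replicate, scaling by peak number, 50% overlap, the deposited gene column and leaving out each replicate. Restriction to 1 class of peak width was added after seeing the data, and the stretch of 2000 bp before a start was not planned. The work used Python 3.11.15 with pandas 2.3.3, numpy 2.4.6 and scipy 1.17.1, and matplotlib 3.10.9 for figures.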

Additional observations from a re-analysis of the deposited data

How the results depend on the processing

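The unknown sequencing depth limits what a window without a peak can show, and differences of 1 or 2 peaks changed sign readily. Of 168 alternatives to the comparisons at single genes, 30 reversed the sign of the difference in mean peaks, and the smallest exact permutation p was 0.1, for LPS against unstimulated at Fosl1 within 50 kb (a difference of 3 peaks, against 1 within 20 kb) and at Fosl2 without unstimulated replicate 3 (1.33). The cause was not tested. No paired analysis was possible because no column of scores is tied to a mouse.

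At Fos, LPS minus unstimulated became −0.33 with scores of at least 100 and with equal numbers of peaks, −0.000169 per 10000 peaks of the replicate and −0.50 in the wide class. Apoptotic cells minus unstimulated became −0.33, −0.33, −0.0750 and −0.50 in the same settings, and LPS minus apoptotic cells −0.67 within 5 kb and −0.50 in the narrow class. At Fosb, LPS minus unstimulated became 0.33 within 50 kb and 0.50 in the narrow class, apoptotic cells minus unstimulated −0.33 with equal numbers, −0.128 per 10000 peaks and −0.50 in the wide class, and LPS minus apoptotic cells 0.33 within 50 kb. At Fosl1, LPS minus unstimulated became −0.33 with equal numbers, and LPS minus apoptotic cells 0.33 with scores of at least 100. At Fosl2, LPS minus unstimulated became −0.33 with equal numbers, and LPS minus apoptotic cells −0.67 for the gene body alone, −0.33 with equal numbers and −1 in the narrow class. The values at Fosl2 with equal numbers rest on how ties at 136.64 in LPS replicate 1 were handled.

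Over the 4 genes, LPS minus unstimulated was 2.33 and became 6.33 within 50 kb and −1.67 with equal numbers. Apoptotic cells minus unstimulated was 3.00 and became −0.67 with equal numbers and 9.00 in the narrow class. LPS minus apoptotic cells was −0.67 and became 2.33 within 50 kb, −6.00 in the narrow class and 0.50 in the wide class.

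With each replicate left out, LPS minus unstimulated ranged from −0.33 to 1.17 at Fos, from −0.67 to 0.33 at Fosb, from −0.33 to 1.67 at Fosl1, from 0.67 to 1.33 at Fosl2 and from −0.17 to 3.83 over the family, negative there only without LPS replicate 3. Apoptotic cells minus unstimulated ranged from −0.33 to 0.67 at Fos, from −0.17 to 1.00 at Fosb, and from −0.17 to 4.83 over the family, negative there only without apoptotic cell replicate 3. LPS minus apoptotic cells ranged from −0.67 to 1.00 at Fos, from −2.00 to 0.83 at Fosl1, from −0.17 to 0.83 at Fosl2 and from −3.17 to 2.50 over the family.

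With scores of at least 100, 15 of the 26 regions were left, 2 with a peak in 2 or more replicates and 0 in all 3 LPS replicates. The deposited gene column alone gave 6 regions, 1 of them in 2 or more replicates. Merging only with 50% overlap left the number of regions, and of those shared between replicates, unchanged. AP-1 partner genes with a region in at least 2 replicates numbered 3 (gene body) and 14 (50 kb) after LPS, 1 and 7 in unstimulated macrophages, 1 and 7 with apoptotic cells, and 1 in unstimulated macrophages with scores of at least 100. For serum response and MAP kinase genes they numbered 3 and 12 after LPS, and 1 in unstimulated macrophages for the gene body and with scores of at least 100. Leaving out a replicate gave 1 to 9 AP-1 partner genes after LPS and 1 in unstimulated macrophages, and 2 to 7 and 0 to 1 of the other list. The share of all genes was 24.5% after LPS, 6.68% in unstimulated macrophages and 11.8% with apoptotic cells for the gene body, 22.3% and 38.3% in the latter 2 within 50 kb, and with a replicate left out 15.2 to 47.6% after LPS and 6.71 to 9.82% in unstimulated macrophages.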
